A study of Homo sapiens with 6 samples.

Results

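Expression in the 2 libraries labelled KO 1#, made from a BRPF1 knockout of the human embryonic stem cell line H1, was compared across all genes with that in the 2 libraries labelled WT, made from H1 with the WT genotype. These 4 libraries were taken by their sample labels from the 6 of the series. The other 2 libraries, labelled KO 2#, are another BRPF1 knockout set; they entered the same fit and show where KO 1# stood apart from KO 2#. H1 is an established line that the labels trace to a blastocyst, the embryo before implantation, and the labels call the cells of every library, knockouts included, hESCs. The libraries were built from total RNA with an Illumina TruSeq kit. No treatment, guide, passage or time after editing stands in the labels, and they do not say whether KO 1# is a single clone. They also do not say whether the 2 libraries of a group came from separate cultures, so the p-values below measure the spread between these libraries, which may be technical.

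BRPF1 is a chromatin reader and scaffold that holds histone acetyltransferases of the MYST family, KAT6A (MOZ), KAT6B (MORF) and KAT7 (HBO1), together with the small subunits ING4 or ING5 and MEAF6, and these complexes acetylate lysines of histone H3. Human embryonic stem cells grow as flat epithelial colonies joined by E-cadherin, and their undifferentiated state is held by a network of transcription factors around POU5F1, SOX2 and NANOG. When such cells lose that state they can turn off the network together with the epithelial programme. Fibroblasts and other mesenchymal cells instead secrete fibrillar collagens and pull on them through actin stress fibres and integrins. The series title ties BRPF1 to pluripotency, and the comparison addresses how the transcriptome labelled as knockout differed from that labelled WT.

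Levels below are normalised CPM: counts per 1000000 counts of a library (CPM) after scaling by the trimmed mean of M values (TMM). A gene was called when its Benjamini-Hochberg adjusted p from edgeR's quasi-likelihood test was below 0.05, and every adjusted p below comes from that test. The 4 libraries held 34164830 to 38098779 counts, and replicates of each group differed by more than sampling noise, so no library was counted as a copy of another. WT libraries had counts on 30141 and 31102 genes, against 23893 and 24253 in KO 1#. The 10 most counted genes took 6.1% and 6.3% of the WT counts and 22.1% and 21.6% of the KO 1# counts. Fewer counts were thus left for all other genes in KO 1#, and the part of this in the gene numbers was not tested. The 44 collagen chain genes took 0.255% and 0.234% of the counts of the WT libraries and 15.9% and 14.9% of those of the KO 1# libraries. Such a shift in composition makes the scaling matter for small changes. The median log2 fold change of all 19660 tested genes was -0.11 with TMM, -0.82 by library totals and -0.49 by totals that leave out the 20 most abundant genes.

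BRPF1 transcripts were still present in the knockout libraries. BRPF1 (ENSG00000156983, chromosome 3, 9731729 to 9748018, plus strand) stood at 28.4 and 23.1 normalised CPM in WT and 32.2 and 27.9 in KO 1#. The groups overlap, since WT replicate 1 lies above KO 1# replicate 2. Its change on the log2 scale came to 0.22 (SE 0.12, adjusted p = 0.0988), so BRPF1 was not called, and by library totals it was -0.48 (adjusted p = 0.00103), with the opposite sign. It passed without WT replicate 1 at 0.38 (adjusted p = 0.0225) and without KO 1# replicate 2 at 0.33 (adjusted p = 0.0211). An edited transcript would still be counted for the gene, so these values do not check the label.

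Among the 12 genes of the BRPF1 complexes, all of them tested, 4 were called higher and 6 lower, against 35.0% higher and 38.7% lower of all tested genes, and the list median was -0.09. KAT7 and the 3 JADE scaffolds of the HBO1 complexes were all lower. KAT7, the catalytic subunit, had 167 and 167 normalised CPM in WT and 26.4 and 28.7 in KO 1# (-2.60, adjusted p = 4.23e-15), and a gene on the opposite strand, FAM117A, overlaps it. JADE1, a scaffold that takes the place of BRPF1 in HBO1 complexes, had 169 and 175 normalised CPM in WT and 33.4 and 33.03 in KO 1# (-2.37, adjusted p = 9.04e-15). In neither gene do the groups overlap. The other JADE scaffolds stood at log2 fold changes of -1.44 (JADE3) and -1.20 (JADE2), the subunit ING5 at -0.83 and the BRPF1 paralogue BRD1 at -0.22 (adjusted p = 0.0331). BRD1 was no longer called when 1 library was left out, be it WT replicate 2 (-0.18, adjusted p = 0.176), KO 1# replicate 1 (-0.18, adjusted p = 0.109), KO 2# replicate 1 (-0.21, adjusted p = 0.0547) or KO 2# replicate 2 (-0.21, adjusted p = 0.0585). The rises were small and depended on the scaling. BRPF3, the third paralogue, was at 0.76 with TMM and 0.05 (adjusted p = 0.611) by totals, KAT6A at 0.47 and -0.24 (adjusted p = 0.0239), ING4 at 0.47 and -0.23 (adjusted p = 0.0964), and MEAF6 at 0.36 and -0.35 (adjusted p = 0.00798). MEAF6 also lost its call when WT replicate 1 was left out (0.26, adjusted p = 0.0988). By totals 0 members were higher and 10 lower. KAT6B had 31.03 and 29.9 normalised CPM in WT and 31.2 and 31.6 in KO 1# (0.04, adjusted p = 0.686), and -0.66 (adjusted p = 4.97e-06) by totals.

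KO 1# and WT differed in most of the genes measured. Of 19660 tested genes 14479 were called, 73.6%, with 6872 higher (35.0%) and 7607 lower (38.7%) in KO 1#. When a log2 fold change of at least 1 was also required, 9876 genes remained in the count (50.2%), 4548 higher (23.1%) and 5328 lower (27.1%). The number called moved little with the scaling, but the split did: library totals gave 4264 higher and 11092 lower, and totals that leave out the 20 most abundant genes 5331 and 9466. The range of the changes was wide on both sides, as the plot of fold change against expression level shows. Genes whose transcripts were found in one group only were mostly WT genes: 332 genes with at least 1 normalised CPM in both WT libraries had 0 counts in both KO 1# libraries, and 55 were the other way round. For comparison, 14117 genes had at least 1 normalised CPM in both WT libraries and 13271 in both KO 1# libraries. Genes outside the most abundant ones were sampled less deeply in KO 1#, and the part of this was not tested. In bulk RNA, fewer cells that express a gene and less of its RNA per cell cannot be told apart, here and in what follows.

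**Figure D1:**
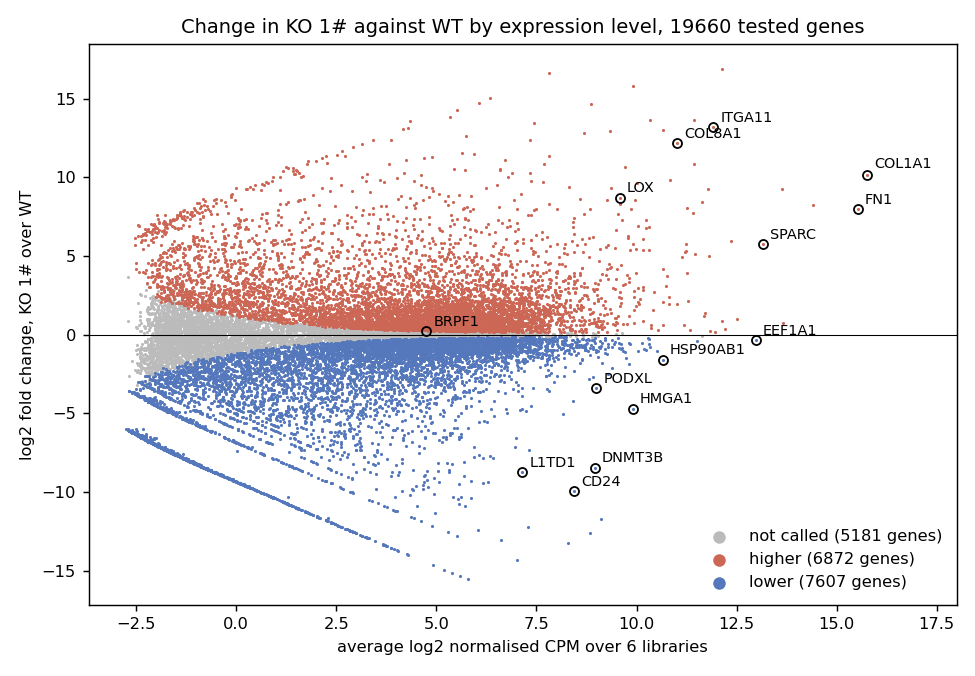
Log2 fold change of KO 1# over WT (y axis) against average log2 normalised CPM over the 6 libraries (x axis), 1 point per tested gene, coloured by call; circled genes are named in the text. COL1A1 and FN1 lie at the far right and high, BRPF1 close to 0, and the diagonal streaks at the lower left are genes with 0 or a few counts in KO 1#, whose fitted fold is not a measured size.

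To show regulatory sequence of the genes with the largest changes, the 250 bases before the start site are printed for the top gene of each of 4 rankings that has an entry in the RefSeq promoter table: the largest fold rise (ITGA11), the largest rise in amount (FN1, since COL1A1 has no entry), the largest fold fall (CD24) and the largest fall in amount (HMGA1). Sequences are RefSeq on GRCh38.p14, read 5′ to 3′ on the gene's strand, and where the table lists several starts the first is shown. The gene-side end of the FN1 window lies inside the GENCODE gene, which has a transcript that begins upstream of this RefSeq start. Capitals mark the octamer ATGCAAAT, the element that POU factors such as OCT4 bind, and the CCAAT box CCAAT, each searched on both strands.

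ITGA11, chr15:68432164-68432413, minus strand: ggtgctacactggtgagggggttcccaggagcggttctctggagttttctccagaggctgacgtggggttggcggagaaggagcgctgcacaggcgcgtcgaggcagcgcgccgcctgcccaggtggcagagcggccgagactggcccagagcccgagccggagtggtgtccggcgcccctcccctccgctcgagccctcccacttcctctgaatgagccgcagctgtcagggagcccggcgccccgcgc
FN1, chr2:215436069-215436318, minus strand: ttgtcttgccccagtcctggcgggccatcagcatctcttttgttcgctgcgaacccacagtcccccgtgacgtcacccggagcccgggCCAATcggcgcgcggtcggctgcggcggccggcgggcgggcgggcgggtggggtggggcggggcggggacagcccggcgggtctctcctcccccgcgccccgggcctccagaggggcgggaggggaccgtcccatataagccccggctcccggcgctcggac
CD24, chr6:106975628-106975877, minus strand: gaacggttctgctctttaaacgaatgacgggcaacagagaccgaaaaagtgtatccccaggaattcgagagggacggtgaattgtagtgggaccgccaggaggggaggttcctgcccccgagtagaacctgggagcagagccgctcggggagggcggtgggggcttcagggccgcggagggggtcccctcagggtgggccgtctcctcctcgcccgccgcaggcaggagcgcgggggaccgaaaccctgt
HMGA1, chr6:34236623-34236872, plus strand: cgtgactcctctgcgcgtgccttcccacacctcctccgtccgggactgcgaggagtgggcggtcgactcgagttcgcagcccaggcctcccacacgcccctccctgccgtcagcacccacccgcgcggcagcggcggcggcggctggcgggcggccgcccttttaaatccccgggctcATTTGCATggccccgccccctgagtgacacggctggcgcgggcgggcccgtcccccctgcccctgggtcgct

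All 4 windows are rich in G and C, from 65.6% in CD24 to 76.4% in FN1. The octamer stands in the HMGA1 window, starting 72 bases before the start site, and in 1.63% of all 35116 RefSeq promoters of this length. The CCAAT box stands in the FN1 window, starting 162 bases before the start site, and in 32.0% of all promoters. In the ITGA11 and CD24 windows neither set of letters occurs. These matches describe the letters and do not show binding.

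The 12 largest falls were ranked among called genes with at least 20 counts in each of the 4 libraries, so that both levels were measured. CD24, a surface glycoprotein (ENSG00000272398, chromosome 6, 106969831 to 106975627, minus strand), had 988 and 1073 normalised CPM in WT and 1.15 and 0.909 in KO 1#. L1TD1, an RNA-binding protein derived from a retrotransposon (ENSG00000240563, chromosome 1, 62194831 to 62212328, plus strand), had 405 and 434 normalised CPM in WT and 0.637 and 1.303 in KO 1#. DNMT3B, the de novo DNA methyltransferase of the early embryo (ENSG00000088305, chromosome 20, 32762385 to 32809356, plus strand), had 1523 and 1434 normalised CPM in WT and 4.71 and 3.76 in KO 1#. In each both WT libraries lay far above both KO 1# libraries. The log2 fold changes were -9.97 (adjusted p = 1.43e-20) for CD24, -8.74 (adjusted p = 1e-17) for L1TD1 and -8.45 (adjusted p = 2.28e-20) for DNMT3B. Cadherins, which join cells, are among the 12. CDH1, E-cadherin (ENSG00000039068, chromosome 16, 68737225 to 68835548, plus strand), had 205 and 214 normalised CPM in WT and 1.21 and 0.636 in KO 1# (-7.83, adjusted p = 4.67e-16), and CDH3, P-cadherin, had 203 and 189 normalised CPM in WT and 0.923 and 1.0000 in KO 1# (-7.67, adjusted p = 8.14e-17). NUP210, a nucleoporin of the pore membrane, stood at a log2 fold change of -7.82, and NR6A1, the orphan receptor GCNF, at -7.69. SFRP2, a secreted protein that binds WNT ligands, had 473 and 462 normalised CPM in WT and 2.83 and 3.06 in KO 1# (-7.31, adjusted p = 1.66e-19). The rest of the 12 belong to signalling: ADCY2, an adenylyl cyclase (-7.12), RAP1GAP2, which turns off the small GTPase RAP1 (-6.86), GAL, the neuropeptide galanin (-6.67), and PDZD4, a PDZ domain protein (-7.12). Genes on the opposite strand overlap L1TD1, CDH1, CDH3, NR6A1, ADCY2 and RAP1GAP2, and whether the counting used strand is not given in the sources used here.

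Of the 12 largest rises by the same rule, 4 are collagen chains. ITGA11, the alpha 11 chain of a collagen-binding integrin (ENSG00000137809, chromosome 15, 68296533 to 68432162, minus strand), had 0.478 and 0.708 normalised CPM in WT and 5675 and 5491 in KO 1#. COL8A1, a network-forming collagen (ENSG00000144810, chromosome 3, 99638475 to 99799226, plus strand), had 0.612 and 0.667 normalised CPM in WT and 2927 and 2998 in KO 1#. COL12A1, a collagen that coats fibrils (ENSG00000111799, chromosome 6, 75084326 to 75206051, minus strand), had 1.95 and 2.895 normalised CPM in WT and 4477 and 4583 in KO 1#. Levels of ITGA11 and COL8A1 were below 1 in both WT libraries and far above that in KO 1#. Their log2 fold changes were 13.20 (adjusted p = 1.09e-22) and 12.17 (adjusted p = 1.04e-22), and that of COL12A1 was 10.88 (adjusted p = 1.68e-21). COL1A1, a chain of type I collagen (ENSG00000108821, chromosome 17, 50183289 to 50201632, minus strand), went from 78.4 and 67.1 to 85982 and 79216 (10.15, adjusted p = 1.93e-22), and COL5A1, a chain of the type V collagen that starts fibrils, from 33.8 and 28.6 to 20199.9 and 17707 (9.25, adjusted p = 2.44e-21). The others include secreted enzymes and binding proteins. LOX, the lysyl oxidase that crosslinks collagen and elastin, had 2.54 and 2.12 normalised CPM in WT and 929 and 1031 in KO 1# (8.71, adjusted p = 5.12e-21), with SRFBP1 on its opposite strand. PAPPA, a protease that frees insulin-like growth factors from their binding proteins, rose by 10.69, and IGFBP3, a binding protein of those growth factors, by 9.85. LTBP2, of the latent TGF-beta binding family, rose by 9.65, TGFBI, a matrix protein induced by TGF-beta, by 9.24, NT5E, the surface nucleotidase CD73, by 9.37, and SEMA3C, a secreted semaphorin, by 9.30.

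Markers of fibroblasts moved with these rises, and the list itself holds COL1A1, one of the 12, and COL1A2 and COL3A1. Of the 15 fibroblast and feeder cell markers 14 were tested, 13 were higher and 1 lower (FBLN1, at -0.23, named after its value was seen), and their summed level was 811 and 775 normalised CPM in WT and 133490 and 124390 in KO 1#. Without these 3 collagen chains the sums were 625 and 607 in WT and 8502 and 8944 in KO 1#. THY1, named after its value was seen, counts among the 13 at only 0.15 (adjusted p = 0.0254). That is less than the shift of the median of all tested genes between TMM (-0.11) and library totals (-0.82). LUM and FAP had 0 counts in both WT libraries, as had DPT, which was below the low-count filter. Both LUM and FAP are among the 13. They were tested because of counts outside WT, so a call of lower was not open to them. The part of such cells in the rises was not tested.

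**Figure D2:**
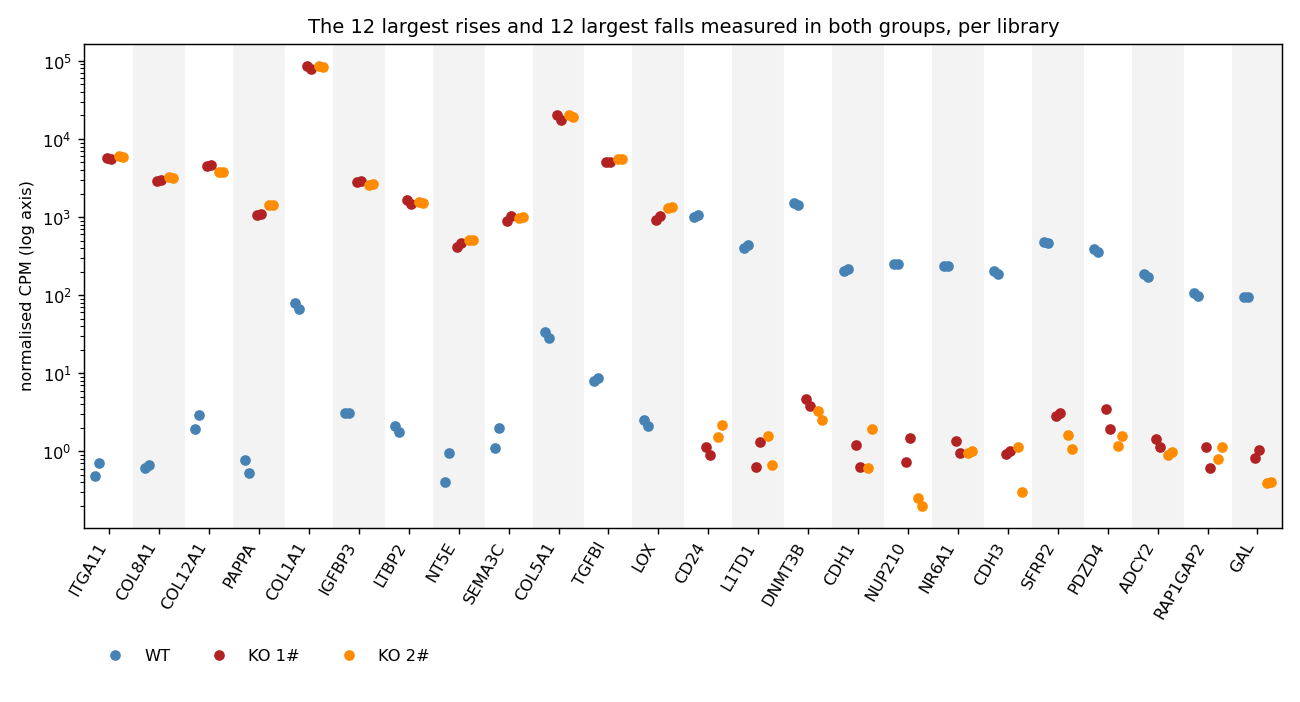
Normalised CPM (log axis) in each of the 6 libraries for the 12 largest rises and 12 largest falls of KO 1# over WT with at least 20 counts in each WT and KO 1# library; each dot is 1 library. WT and KO 1# dots are apart in all 24 genes, by the least in GAL and RAP1GAP2 among the falls and LOX among the rises, and KO 2# dots lie near those of KO 1# in most.

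Ranked by the amount of RNA instead, the rises were led by secreted matrix proteins. COL1A1 gained most, followed by FN1, fibronectin (ENSG00000115414, chromosome 2, 215360440 to 215436172, minus strand), which went from 266 and 264 normalised CPM in WT to 66100.2 and 67594 in KO 1# (7.98, adjusted p = 9.95e-23). COL1A2, the other chain of type I collagen, went from 107 and 102 to 32436 and 30145 (8.23, adjusted p = 1.22e-22), and SPARC, a collagen-binding glycoprotein, from 232 and 231 to 12445 and 12515 (5.75, adjusted p = 8.42e-22). COL4A1, a basement membrane collagen, reached 7731 and 7000.1 from 124 and 119, with COL4A2 overlapping it on the opposite strand. COL3A1 had 1 and 4 counts in the WT libraries and 6565 and 6084 normalised CPM in KO 1#, a change whose direction is clear and whose size rests on those few counts. COL5A1 and ITGA11 complete the 8. The falls in amount came from stem cell factors and from highly expressed housekeeping genes. HMGA1, an architectural chromatin protein (ENSG00000137309, chromosome 6, 34236873 to 34246231, plus strand), had 2727 and 2594 normalised CPM in WT and 108 and 95.2 in KO 1# (-4.71, adjusted p = 3.13e-19). HSP90AB1, the constitutive HSP90 chaperone, had 2856 and 2813 normalised CPM in WT and 949.6 and 941 in KO 1# (-1.58, adjusted p = 9.61e-15), and HNRNPA1, a splicing regulator with many pseudogene copies, had 1782 and 1761 normalised CPM in WT and 476 and 492 in KO 1# (-1.87, adjusted p = 2.14e-15). PODXL, the glycoprotein that carries the stem cell antigens TRA-1-60 and TRA-1-81, had 1329 and 1283 normalised CPM in WT and 121 and 124 in KO 1# (-3.42, adjusted p = 6.06e-18). EEF1A1, which delivers tRNA to the ribosome, had 9128 and 9344 normalised CPM in WT and 7148 and 7132 in KO 1#, a log2 fold change of only -0.37 (SE 0.05, adjusted p = 1.44e-06) that counts here because the gene is so abundant, and its many copies in the genome make the value uncertain. POU5F1, LIN28A and DNMT3B are the remaining 3 and are described with the pluripotency genes and above.

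The pluripotency network was lower throughout. All 32 of its 32 genes were called lower, with a list median of -8.60 (-8.17 when members at 0 take their bounds), against -0.11 over all tested genes. Their summed level was 8656 and 8427 normalised CPM in WT and 114 and 118 in KO 1#. Since the list was chosen with results of these libraries known, its direction is not independent evidence. POU5F1, the factor OCT4 (ENSG00000204531, chromosome 6, 31164337 to 31180731, minus strand), had 1745 and 1580.4 normalised CPM in WT and 0.318 and 0.667 in KO 1#, and LIN28A, which blocks let-7 microRNAs, had 1373 and 1349 normalised CPM in WT and 0.318 and 0.121 in KO 1#. The KO 1# levels rest on 10 and 22 counts of POU5F1 and 10 and 4 of LIN28A. TCF19 overlaps POU5F1 on the opposite strand, and PSORS1C3 overlaps it on the same strand. TDGF1, the NODAL co-receptor Cripto, was 24676 times lower (95% exact interval of the ratio 4429 to 974666) and ZSCAN10, a zinc finger partner of OCT4 and SOX2, 9400.3 times lower (95% exact interval of the ratio 2602 to 77625). SOX3, a relative of SOX2, had 0 counts in both KO 1# libraries and was at least 409-fold lower, TERT, the catalytic subunit of telomerase, at least 379.8-fold lower, and UTF1, a chromatin factor of stem cells, at least 289-fold lower. Bounds like these take 3 counts in each library of the group at 0, and genes at 0 in KO 1# passed the low-count filter through their WT counts and could only be called lower.

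Epithelial genes went the same way. Of 39 junction proteins and regulators 37 were lower, 1 higher and 1 not called (the protease inhibitor SPINT2, named after its value was seen), with a median of -5.95. GRHL2 and OVOL2, transcription factors that keep cells epithelial, had 26.7 and 26.97 and 13.1 and 11.2 normalised CPM in WT and 0 counts in KO 1#, and were at least 288-fold lower and at least 130.4-fold lower. ESRP1, the splicing factor of epithelial isoforms, went from 138 and 140 to 0.0318 and 0.121, the latter from 1 and 4 counts. MAL2 and RAB25, which sort proteins to the apical membrane, were at least 931-fold lower and 2433 times lower (95% exact interval of the ratio 436 to 96129.6). Not every epithelial transcript was lost. KRT8, a keratin of simple epithelia, kept 199.5 and 185 of 389.7 and 377 normalised CPM (-0.99, adjusted p = 1.93e-10), with KRT18 overlapping on the opposite strand. JUP, plakoglobin of desmosomes and adherens junctions, was the member called higher, at 155 and 140.3 normalised CPM in WT and 276 and 261 in KO 1# (0.86, adjusted p = 2.26e-09), and stayed above 0 by totals at 0.15 (adjusted p = 0.0423).

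The machinery that makes mature collagen was higher together with the chains. Of 32 tested enzymes and chaperones 28 were higher and 2 lower, with a median of 3.06; by library totals these were 25 and 6, with a median of 2.35. BMP1, the protease that removes the C-terminal propeptide of fibrillar procollagens, had 4.22 and 4.42 normalised CPM in WT and 529 and 472 in KO 1# (6.86, adjusted p = 4.83e-20). LOXL1, a lysyl oxidase, had 13.3 and 13.2 normalised CPM in WT and 489 and 450.3 in KO 1# (5.14, adjusted p = 1.73e-19). The groups are far apart in both. P4HA3, a prolyl hydroxylase subunit, had 0.153 and 0.333 normalised CPM in WT and 26.4 and 22.8 in KO 1# (6.66, adjusted p = 2.02e-14), and KDELR3, a receptor that returns chaperones to the endoplasmic reticulum, 7.21 and 7.25 normalised CPM in WT and 179 and 194 in KO 1# (4.69, adjusted p = 2.4e-18). The most abundant members were already well expressed in WT. SERPINH1, the collagen chaperone HSP47, had 627 and 595 normalised CPM in WT and 2424 and 2307 in KO 1# (1.95, adjusted p = 1.14e-15), and FKBP10, another collagen chaperone, had 202 and 191 normalised CPM in WT and 1687 and 1479.6 in KO 1# (3.01, adjusted p = 8.64e-17). The members called lower, named after their values were seen, were PCOLCE2, an enhancer of procollagen processing, at -2.19, and ADAMTS2, which removes the N-terminal propeptide, at -1.75.

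Contractile and adhesion genes were mostly higher. Of 38 actin, myosin and focal adhesion genes 32 were higher and 3 lower (median 1.89), or 29 and 9 by totals (median 1.18). PALLD, which bundles actin in stress fibres, had 12.8 and 13.6 normalised CPM in WT and 1558 and 1682 in KO 1# (6.94, adjusted p = 3.34e-21), although CBR4 and DDX60L overlap it on the opposite strand. Of the smooth muscle proteins in the list ACTA2 and TAGLN were higher, and MYH11 was lower. CNN1, SMTN, LMOD1, MYL9 and MYLK, named after their values were seen, were also called higher. ACTA2, smooth muscle actin, had 0.478 and 0.417 normalised CPM in WT and 33.6 and 27.001 in KO 1# (6.07, adjusted p = 9.57e-15), a low level beside TAGLN, transgelin, with 47.6 and 46.3 normalised CPM in WT and 860.5 and 808 in KO 1# (4.15, adjusted p = 4.26e-19). FLNC, a filamin of muscle, rose by 4.48 and TGFB1I1, the focal adhesion adaptor HIC-5, by 4.67. The cytoplasmic actins changed least of those named. ACTB had 3533 and 3494 normalised CPM in WT and 7069 and 6877 in KO 1# (0.99, adjusted p = 3.04e-12; 0.28 (adjusted p = 3.23e-05) by totals) and ACTG1 2873 and 2829 normalised CPM in WT and 5221 and 5108 in KO 1# (0.86, adjusted p = 2.31e-11; 0.15 (adjusted p = 0.00872) by totals). The smooth muscle and pericyte markers, 10 genes that share ACTA2, CNN1, LMOD1 and MYH11 with this list, had 8 higher and 2 lower. Their summed levels were 328 and 296 in WT and 3106 and 2844 in KO 1#. Most of the KO 1# sum was CSPG4 (1474 and 1337) and NOTCH3 (1217 and 1110). The 2 lower markers are named after their values were seen. MYH11, smooth muscle myosin, had 2.58 and 2.52 normalised CPM in WT and 1.18 and 0.758 in KO 1# (-1.40, adjusted p = 0.00904). RGS5 had 12.4 and 12.3 normalised CPM in WT and 0.764 and 0.697 in KO 1# (-4.08, adjusted p = 6.21e-11), with NUF2 on its opposite strand. Another entry named RGS5 overlaps it on the same strand, so its value is uncertain. The part of such cells in the rises was not tested.

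Membrane proteins of caveolae and the annexins and galectins followed. Of 31 genes 26 were tested, 18 were higher and 7 lower (69.2% and 26.9%, median 2.56). The shares of all tested genes were 35.0% and 38.7%. ANXA1, an annexin that dampens inflammation, had 0.822 and 1.27 normalised CPM in WT and 242 and 257 in KO 1# (7.90, adjusted p = 3.07e-19). LGALS1, galectin-1, had 19.7 and 16.98 normalised CPM in WT and 1358 and 1185 in KO 1# (6.11, adjusted p = 1.87e-19), and ANXA2, a calcium-dependent membrane binder, 91.6 and 93.8 normalised CPM in WT and 1441 and 1399 in KO 1# (3.94, adjusted p = 2.68e-19). The groups do not come near each other in these 3. CAVIN2, a coat protein of caveolae, was 867 times higher (95% exact interval of the ratio 155 to 34320.4), and ANXA8 50.6 times higher (95% exact interval of the ratio 13.5 to 427), both from a few WT counts. LGALS12, a galectin of fat cells, had 0 counts in KO 1# and was at least 3.56-fold lower.

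Genes that build the sugar chains of proteoglycans were more often higher than lower. Of 48 tested genes for hyaluronan, chondroitin and heparan sulphate 35 were higher and 10 lower (median 1.49), or 27 and 16 by totals (median 0.78). CHSY3, a chondroitin synthase, had 1.97 and 1.58 normalised CPM in WT and 176 and 173 in KO 1# (6.61, adjusted p = 5.47e-19), and CHPF, a chondroitin polymerising factor, had 133 and 125 normalised CPM in WT and 1019.9 and 923 in KO 1# (2.92, adjusted p = 7.19e-17). For heparan sulphate, EXTL1, a glycosyltransferase, had 2.18 and 1.19 normalised CPM in WT and 91.7 and 85.6 in KO 1# (5.70, adjusted p = 5.86e-16), NDST1, the main N-sulphating enzyme, 107 and 102 normalised CPM in WT and 389 and 359.6 in KO 1# (1.85, adjusted p = 3.35e-14), and its relative NDST3 0.0382 and 0.0833 normalised CPM in WT and 3.72 and 3.79 in KO 1# (5.89, adjusted p = 1.2e-08). Some sulphotransferases went the other way. HS3ST2 had 0 counts in KO 1# and was at least 10.5-fold lower, and HS6ST3 was 95.04 times lower (95% exact interval of the ratio 16.8 to 3779).

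Receptor tyrosine kinases changed both ways. Of 58 genes 54 were tested, 19 were higher and 32 lower (median -1.08), which is 35.2% and 59.3% against 35.0% and 38.7% of all tested genes. The 2 most abundant members both rose. PTK7, a co-receptor of WNT signalling, had 205 and 185 normalised CPM in WT and 1558 and 1450.4 in KO 1# (2.95, adjusted p = 3.92e-17), and PDGFRB, the PDGF receptor of mesenchymal cells, 35.5 and 34.5 normalised CPM in WT and 1476 and 1403 in KO 1# (5.36, adjusted p = 1.66e-20). Ephrin, ERBB and VEGF receptors were among those with large falls. EPHA1 had 186 and 174 normalised CPM in WT and 1.08 and 0.576 in KO 1# (-7.76, adjusted p = 5.88e-18), with ZYX on its opposite strand, and ERBB3, the neuregulin receptor, 74.1 and 74.4 normalised CPM in WT and 0.764 and 0.849 in KO 1# (-6.52, adjusted p = 5.76e-15). EPHA8 had 8.603 and 6.94 normalised CPM in WT and 0 counts in KO 1#, at least 83.4-fold lower, and EPHA10 was at least 17.02-fold lower. FLT4, the VEGF receptor of lymphatic vessels, was 415 times lower (95% exact interval of the ratio 115 to 3426). In each of these the groups are apart, and the scatter of KO 1# against WT levels shows how few of the 54 lie near the diagonal. By totals 16 were higher and 35 lower.

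**Figure D3:**
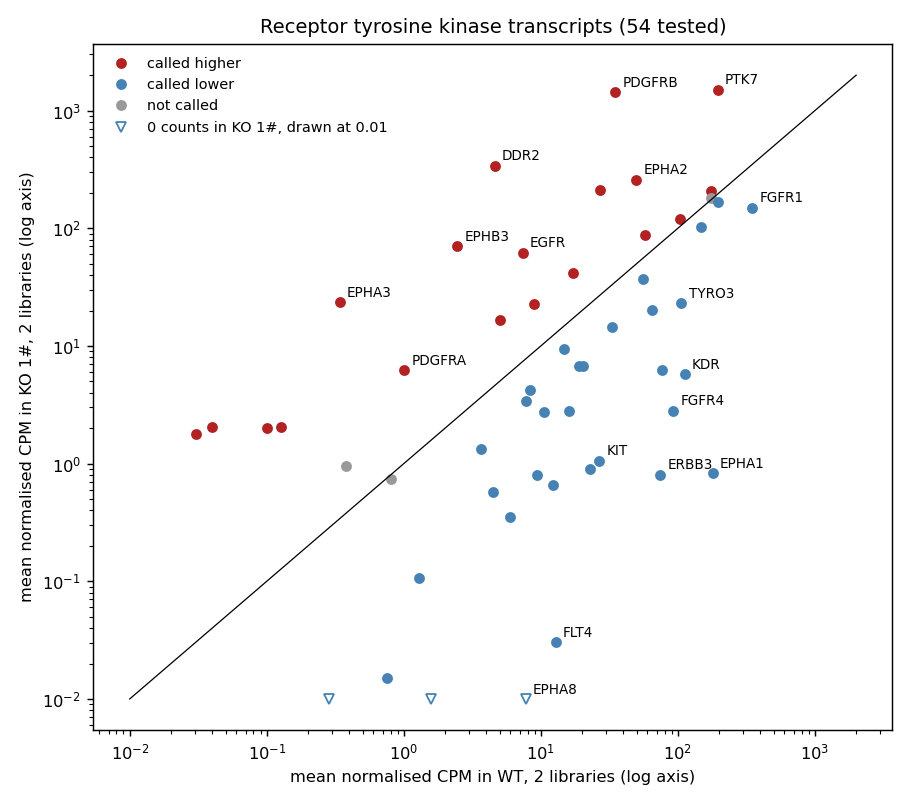
Mean normalised CPM of the 54 tested receptor tyrosine kinases in KO 1# (y axis) against WT (x axis), both on log axes, 1 point per gene coloured by call; open triangles are genes with 0 counts in KO 1#, and the line marks equal levels. PDGFRB and PTK7 lie highest, EPHA1 and ERBB3 far below the line.

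Adhesion G protein-coupled receptors and nuclear receptors changed both ways. Of 28 tested adhesion receptors 11 were higher and 16 lower (39.3% and 57.1%, against 35.0% and 38.7% of all tested genes, median -1.05). ADGRA2, a co-receptor for WNT7 ligands, had 3.31 and 4.06 normalised CPM in WT and 549 and 494 in KO 1# (7.15, adjusted p = 9.55e-20), and ADGRL1, latrophilin-1, 204 and 181 normalised CPM in WT and 103 and 93.4 in KO 1# (-0.98, adjusted p = 3.98e-09). ADGRG5 had 13.1 and 13.5 in WT and 0 counts in KO 1# (at least 143-fold lower), ADGRD1 was at least 26.01-fold lower, and ADGRF5, a receptor of endothelium and lung, 353 times higher (95% exact interval of the ratio 97.1 to 2921). Of 39 tested nuclear receptors 15 were higher and 19 lower (38.5% and 48.7%, near the shares of all tested genes, median -0.29), and 11 and 24 by totals. NR5A2, LRH-1, a regulator of POU5F1, had 7.34 and 6.71 in WT and 0 counts in KO 1# (at least 75.4-fold lower). The COUP transcription factors rose from almost nothing. NR2F1 was 2451 times higher (95% exact interval of the ratio 439 to 96874), and NR2F2 had 0.115 and 0 normalised CPM in WT and 42.9 and 41.7 in KO 1# (9.39, adjusted p = 1.01e-15). NR2F6, a relative of theirs and one of the 2 most abundant members, fell from 172 and 149 to 95.4 and 82.2 (-0.85, adjusted p = 7.19e-08).

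Tubulins, tetraspanins and connexins were mixed. Of 21 tested tubulin and stathmin genes 5 were higher and 12 lower (23.8% and 57.1%, against 35.0% and 38.7% of all tested genes, median -0.43). TUBA1A, an alpha-tubulin abundant in neurons and fibroblasts, had 135 and 134 normalised CPM in WT and 1324 and 1358 in KO 1# (3.32, adjusted p = 1.67e-18), while TUBB, the main beta-tubulin, had 1356 and 1374 normalised CPM in WT and 1191 and 1197 in KO 1# (-0.19, adjusted p = 0.00298). TUBB4A fell from 22.9 and 23.6 to 0.0318 and 0.242 (-7.35, adjusted p = 2.61e-12) and TUBA4A from 40.6 and 42.95 to 1.69 and 2.03 (-4.49, adjusted p = 2.01e-12). Tubulin genes are near copies of each other, and reads shared between them make these values uncertain. Of 30 tested tetraspanins, membrane organisers of exosomes and fusion, 19 were higher and 7 lower (63.3% and 23.3%, median 0.81). By totals these were 13 and 11 (median 0.10). CD82, a suppressor of metastasis, had 3.08 and 3.12 normalised CPM in WT and 103 and 85.3 in KO 1# (4.92, adjusted p = 1.02e-16) and CD63, of late endosomes, 145 and 132 normalised CPM in WT and 457 and 399.8 in KO 1# (1.63, adjusted p = 7.25e-13), while TSPAN33 fell from 27.3 and 28.2 to 2.26 and 2.09 (-3.67, adjusted p = 6.24e-11). Of 14 tested gap junction genes 2 were higher and 8 lower (14.3% and 57.1%, median -1.59). GJA1, connexin 43, remained the dominant one at 453 and 474 normalised CPM in WT and 721 and 758 in KO 1# (0.67, adjusted p = 6.76e-09; -0.03 (adjusted p = 0.612) by totals). GJC1, connexin 45, had 83.2 and 96.1 normalised CPM in WT and 44.4 and 50.8 in KO 1# (-0.91, adjusted p = 7.78e-08), and GJA4, connexin 37, 3.36 and 2.999 normalised CPM in WT and 0.191 and 0.0606 in KO 1# (-4.64, adjusted p = 1.01e-06).

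Nucleotide synthesis was lower along its length. Of 33 genes 29 were lower and 2 higher (median -1.23). For the one-carbon units of purines and thymidylate, SHMT1 had 33.8 and 32.6 normalised CPM in WT and 4.42 and 3.64 in KO 1# (-3.04, adjusted p = 5.8e-12) and MTHFD1 149 and 149 normalised CPM in WT and 29.1 and 29.001 in KO 1# (-2.36, adjusted p = 1.45e-14). Both lay lower in both KO 1# libraries than in either WT library. In the purine ring pathway PAICS had 446 and 471 normalised CPM in WT and 91.8 and 99.6 in KO 1# (-2.26, adjusted p = 3.06e-15) and PFAS 171 and 153 normalised CPM in WT and 47.5 and 33.2 in KO 1# (-2.00, adjusted p = 6.24e-11). CAD, which starts pyrimidine synthesis, fell less, from 261 and 249 to 162 and 150.5 (-0.71, adjusted p = 3.32e-08). The members called higher, named after their values were seen, were ADSL and IMPDH1. IMPDH1, of guanine nucleotide synthesis, was at 1.27 (0.57 (adjusted p = 4.33e-06) by totals). ADSL, an enzyme of purine synthesis, was at 0.77 (0.06 (adjusted p = 0.83) by totals, 0.66 without WT replicate 2 and 0.50 without KO 1# replicate 1). It had only 2.96 and 2.52 normalised CPM in WT and 5.54 and 3.85 in KO 1#. SGSM3 overlaps ADSL on the same strand, so its value is uncertain.

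**Figure D4:**
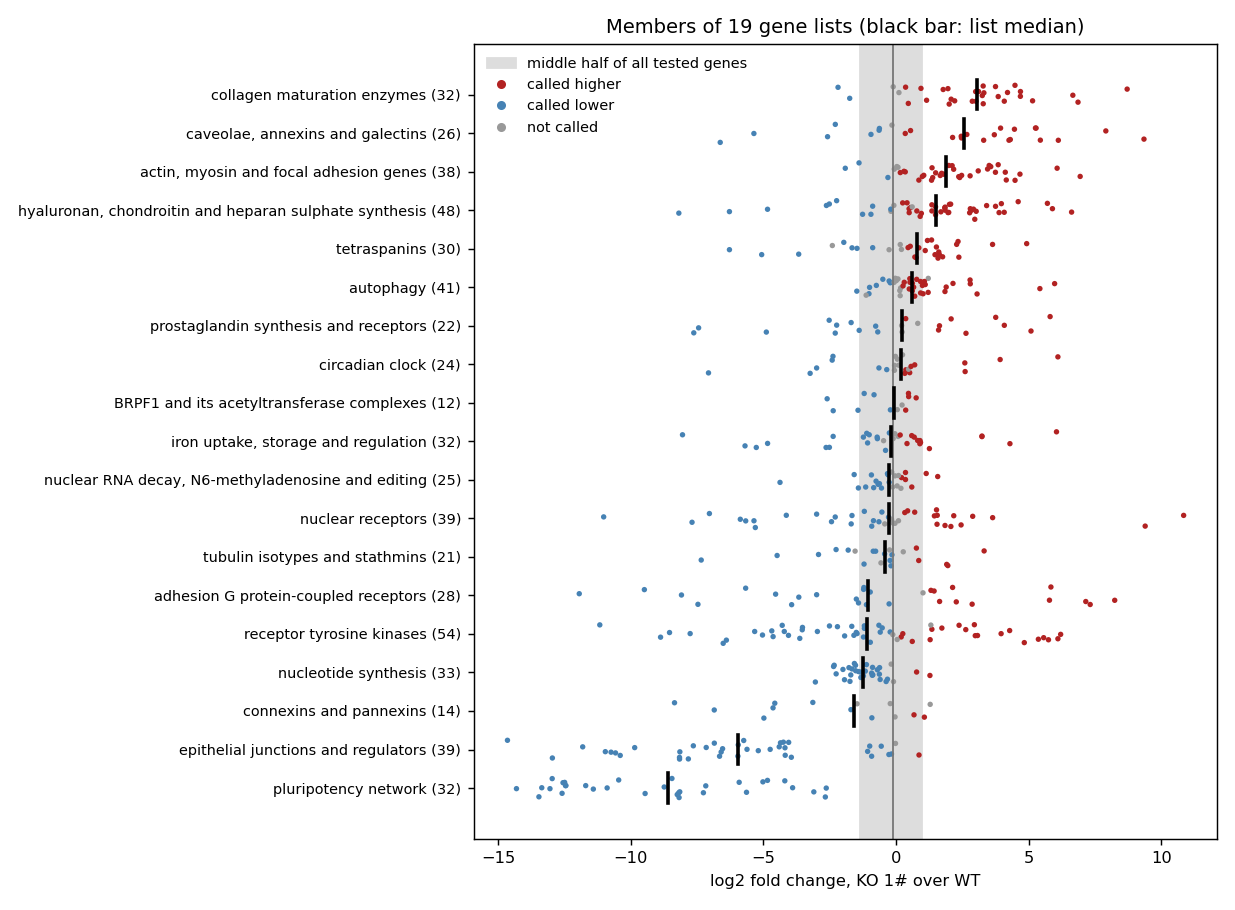
Log2 fold change of KO 1# over WT for each tested member of 19 functional gene lists (number tested in parentheses), coloured by call; black bars are list medians, the line is the median of all tested genes and the grey band runs from the lower to the upper quartile of them. The medians run from the collagen maturation enzymes at 3.06 to the pluripotency network at -8.60; fitted values of genes at or near 0 counts in a group depend on the model and are no measured size.

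Against the label hESCs, the markers of undifferentiated embryonic stem cells were nearly gone from KO 1#. All 12 also stand in the pluripotency list above, so this is not a separate result. They were all lower, with a summed level of 6686 and 6520.3 normalised CPM in WT and 38.8 and 40.9 in KO 1#. PRDM14 and FGF4 had 0 counts in both KO 1# libraries. In WT the sum was led by POU5F1, DNMT3B and LIN28A. Markers of the other cell types were mostly low in both groups. Of all tested genes 35.0% were higher and 38.7% lower, and these lists hold few tested genes. For endothelium 4 of 9 tested were higher and 5 lower, with a sum of 145 and 149 in WT and 38.8 and 41.7 in KO 1#. PECAM1 (CD31) had 0.0574 and 0.229 normalised CPM in WT and 15.2 and 17.3 in KO 1# and KDR, a VEGF receptor, 112 and 113 normalised CPM in WT and 5.73 and 5.73 in KO 1#, so the list moved both ways. For neural cells 4 of 8 were higher and 1 lower (213 and 186 against 244 and 225, most of it NES), for cartilage and bone 4 of 8 higher and 2 lower (207 and 201 against 198 and 203, led by ALPL in WT, and 58.2 and 55.4 against 192 and 198 without it), and for trophoblast 3 of 4 higher and 0 lower (5.1999 and 4.999 against 134 and 127, most of it KRT7). Muscle had 0 of 5 higher and 4 lower (44.3 and 44.2 against 25.2 and 30.5, most of it TTN). Adipocyte, liver and blood markers summed to under 10 normalised CPM in each of the 4 libraries, with 3, 3 and 4 genes tested.

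KO 1# and KO 2# were close to each other beside their distance from WT. Between them 759 of 19660 genes were called (3.86%), 311 higher (1.58%) and 448 lower (2.28%) in KO 2#, and 219 (1.11%) with a log2 fold change of at least 1, 66 higher (0.336%) and 153 lower (0.778%). By library totals the split was 222 and 642, and with those totals less the 20 most abundant genes 255 and 581. The count was 366 without KO 2# replicate 2, 477 without KO 2# replicate 1 and 1397 without KO 1# replicate 2. Both comparisons of KO 1# share its libraries, so the values below are given side by side only. Genes whose KO 1# level lay below or above that of both WT and KO 2# were ranked by their fold between the knockout sets, and the 6 with the largest rise in KO 2# over KO 1# come first. MX2, an interferon-induced GTPase that blocks viruses, had 9.597 and 9.04 normalised CPM in WT, against 0.987 and 1.42 in KO 1# and 16.6 and 17.3 in KO 2# (KO 1# over WT -2.94, adjusted p = 6.05e-10; KO 2# over KO 1# 3.81, adjusted p = 5.51e-09). HERC6, a ubiquitin ligase, had 4.61 and 5.52, 1.18 and 0.9697 and 4.53 and 4.82 (-2.24 and 2.12), and OAS3, a sensor of double-stranded RNA, 1.82 and 2.23, 0.955 and 0.758 and 3.73 and 4.28 (-1.24 and 2.22). KO 1# was the lowest group in these 3, apart from both others. GOLGA4, a long coiled-coil tether of the Golgi, had 73.8 and 77.5 in WT, against 22.5 and 24.7 in KO 1# and 89.1 and 91.03 in KO 2# (-1.68, adjusted p = 4.12e-12; 1.93, adjusted p = 3.46e-10). PCDHA11, a clustered protocadherin, showed the same order (-2.05 and 1.84), but it shares its last exons with the other alpha protocadherins, so its value is uncertain. CENPE, a mitotic motor, had 62.1 and 61.8, 0.764 and 1.39 and 2.28 and 5.06 (-5.83 and 1.77), and its difference between the knockout sets missed the threshold without KO 2# replicate 2 (1.07, adjusted p = 0.0772).

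In the other 6 genes of this rule KO 1# was the highest group. GFAP, the intermediate filament of astrocytes, had 0.688 and 0.604 in WT, against 10.6 and 9.12 in KO 1# and 2.07 and 2.46 in KO 2# (3.92, adjusted p = 4.83e-10; -2.12, adjusted p = 4.73e-05). FABP7, a fatty acid binding protein of radial glia, had 3.21 and 2.23, 6.52 and 6.58 and 1.74 and 1.08 (1.26, or 0.56 (adjusted p = 0.0719) by totals, and -2.22), and C1orf61, whose locus also holds the microRNA MIR9-1, 2.58 and 1.56, 13.05 and 13.8 and 3.04 and 3.17 (2.69 and -2.11). These levels are low. The neural marker list, which holds GFAP, summed to 244 and 225 in KO 1# and 238 and 222 in KO 2#, but NES makes up most of both, and without it the sums were 26.3 and 24.8 in KO 1# and 12.8 and 9.58 in KO 2#. MAP2, a neuronal microtubule protein named after its value was seen, was also lower in KO 2# (-1.23, adjusted p = 0.00514), but not called when KO 2# replicate 2 was left out (-0.89, adjusted p = 0.0780). The part of such cells in these differences was not tested. A2M, a broad protease inhibitor, had 0.191 and 0.187 in WT, against 29.3 and 32.4 in KO 1# and 6.41 and 6.14 in KO 2# (7.32, adjusted p = 2.65e-15; -2.30, adjusted p = 3.75e-08), with A2M-AS1 on its opposite strand. SPP1, osteopontin, a matrix protein and cytokine, had 4.87 and 4.89, 235 and 228 and 65.2 and 72.1 (5.57, adjusted p = 9.85e-19; -1.75, adjusted p = 3.46e-10). RASAL3, a RAS GTPase-activating protein of blood cells, had 1.17 and 0.604, 19.5 and 17.9 and 3.99 and 3.78 (4.38 and -2.27). In all 12 genes the KO 1# libraries overlap neither WT nor KO 2#, which the rule that chose them favours. Transcript composition moved with this difference: the longest transcript of the genes higher in KO 2# had a median G and C content of 42.8% and a length of 4773 bases, that of the genes lower in KO 2# 52.9% and 4326 bases, and that of all tested genes 48.7% and 3118 bases. Between KO 1# and WT the medians were 49.1% for higher and 48.7% for lower genes. The part of transcript composition in the difference between the knockout sets was not tested.

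**Figure D5:**
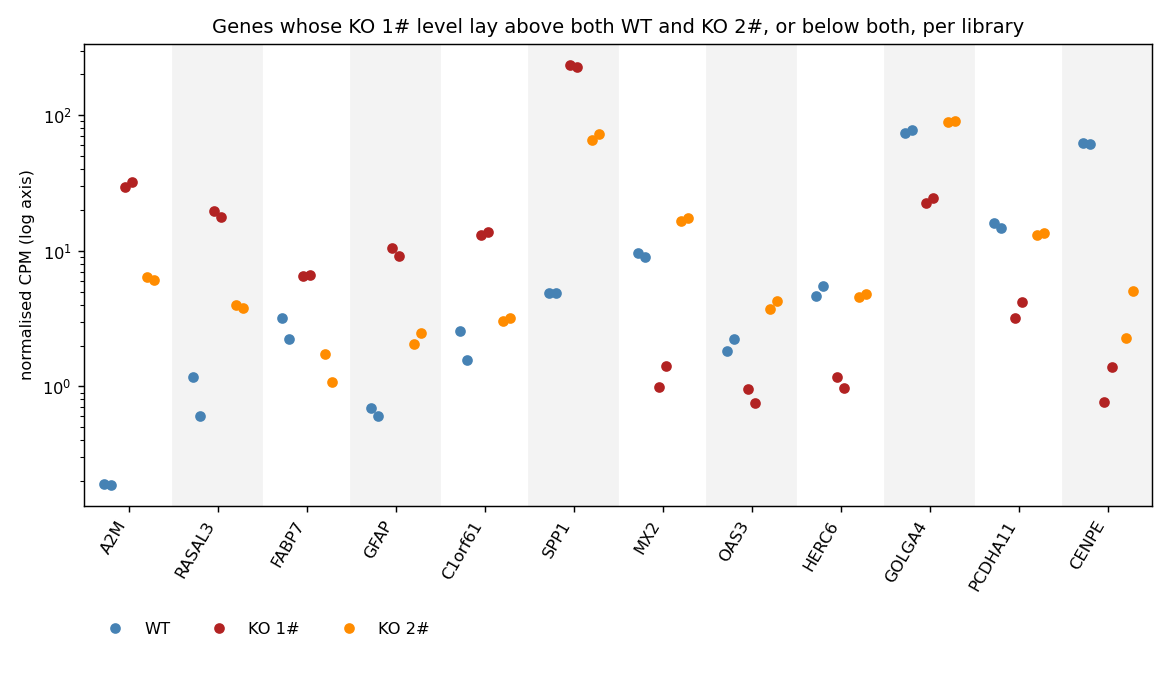
Normalised CPM (log axis) in each of the 6 libraries for the 12 genes chosen because KO 1# differed from both WT and KO 2# in the same direction; each dot is 1 library. KO 1# is the highest group in the 6 genes on the left, A2M to SPP1, and the lowest in the 6 on the right, MX2 to CENPE.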

How the data were processed

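RNA sequencing libraries from H1 cells, 2 labelled WT, 2 KO 1# and 2 KO 2#, were built from total RNA with the TruSeq RNA kit, per the labels' protocols. The deposited table holds whole-number counts per gene for 58395 identifiers that the authors made from aligned reads. HISAT2 2.0.4, SAMtools 1.3.1, HTSeq 0.6.0, DESeq 1.18.1 and build GRCh38 appear in the submitters' processing notes; their roles, annotation release and strand setting are not given in the notes or labels used here. Without a stated strand setting, reads of overlapping genes cannot be told apart. Not every overlap is named beside its gene. Genes on the opposite strand also overlap ACTA2 (FAS and STAMBPL1), KDELR3 (DDX17), P4HA3 (PPME1), ADGRA2 (BRF2) and GFAP (CCDC103 and FAM187A), among others. Gene names, coordinates and overlaps came from GENCODE 29 on GRCh38, which matched 58275 identifiers; the others held at most 0.00675% of a library's counts. Promoters came from RefSeq (GRCh38.p14), which matched 12518 of the tested genes (63.7%), so no comparison of promoters between groups of genes was made.

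Counts were analysed with edgeR 4.0.16 in R 4.3.3: TMM scaling, a low-count filter (filterByExpr, minimum count 10) that left 19660 genes, and the robust quasi-likelihood F test, two-sided, over all 6 libraries in 3 groups (3 residual degrees of freedom, biological coefficient of variation 0.0829). The contrasts were KO 1# minus WT and KO 2# minus KO 1#, with Benjamini-Hochberg adjustment over all tested genes and calls at an adjusted p below 0.05. Errors are SD over 2 libraries, or an SE taken as the absolute log2 fold change over the square root of the F statistic. At large folds with few counts in a group that SE comes out too small, so it is printed for BRPF1 and EEF1A1 only. The fit was also run on simulated counts in which 200 of 19660 genes changed, without the shift in composition of these libraries. It recovered 67% of them at 2-fold and 80% at 4-fold, with 2 and 5 unchanged genes called. Calls under such a shift are not checked by it.

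Samples were grouped by their titles. The members and lists were chosen with earlier results of these data known. Named genes were BRPF1, the 12 largest rises and falls by fold with at least 20 counts in each WT and KO 1# library, the 8 largest each way by difference of mean CPM without mitochondrially encoded genes, and 6 each way whose KO 1# level lay above or below both WT and KO 2# (called in both contrasts, at least 20 counts in each KO 1# library, average log2 CPM of at least 1). From each of the 31 lists up to 5 called members with the largest fold and up to 2 most abundant were named. All 782 listed symbols were found in the table. Lists are described by counts and medians, without a test, and 1 list and 1 further gene are not reported here. Where a group held 0 counts, a fold is a lower bound against 3 counts per library of that group; with 1 to 3 counts the ratio has a 95% exact interval. Both cover counting error only, since reads without molecular identifiers are not independent molecules. Alternatives were library totals, totals without the 20 most abundant genes, RLE factors, DESeq2 1.42.0, other filters, a fit of 4 libraries, the replicate number as a block, and leaving out each library.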

Additional observations from a re-analysis of the deposited data

How the results depend on the processing

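The number of genes called between KO 1# and WT stayed within 1.5 times 14479 under every alternative run except the fold rule for higher genes (4548) and library totals for higher genes (4264). Leaving out single libraries gave 12913 to 14992, DESeq2 13580, RLE factors 14505 and the fit of the 4 libraries 14442. The difference between the knockout sets was less settled: of 759 genes the fold rule left 219 (66 higher, 153 lower), and leaving out single libraries gave 366 to 1397 (153 to 695 higher, 213 to 702 lower). The fit of 4 libraries called 512 higher and DESeq2 521, with 4193 adjusted p-values not given by DESeq2. At an unadjusted p below 0.05 there were 3124 genes. Replicate numbers did not pair the libraries: same-numbered libraries correlated at 0.034, 0.011 and 0.027 in their deviations from group means. With the number as a block 14433 genes were called between KO 1# and WT, and 1634 (804 higher, 830 lower) between the knockout sets, and BRPF1 passed at 0.23 (adjusted p = 0.0373).

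List medians turned sign by library totals for autophagy (-0.10), the clock (-0.54) and prostaglandins (-0.49), and with totals less the 20 most abundant genes for the clock (-0.21) and prostaglandins (-0.16). Totals moved every list down by the shift of all genes. Of 2490 values of 178 named fold changes under the alternatives, 2455 kept direction and side of the threshold and 13 turned sign, all of changes below 0.7 on the log2 scale. By totals these were BRPF1 (-0.48), KAT6A (-0.24), KAT6B (-0.66), ING4 (-0.23), MEAF6 (-0.35) and GJA1 (-0.033). With totals less those 20 genes they were BRPF1 (-0.16), KAT6B (-0.33) and MEAF6 (-0.018). KAT6B was at -0.013 with RLE factors and with DESeq2. ULK1 was at 0.015 without WT replicate 1 and 0.041 without KO 1# replicate 2. The cause was not tested beyond the construction of each scaling. Genes with 0 to 3 counts in a group have no measured fold at this depth, but a bound or an interval.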

Other observations

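Lists not described above moved both ways or by small amounts. Of 41 autophagy genes 25 were higher and 7 lower (median 0.61), but by library totals 14 and 18 (median -0.10), so the direction of the list depended on the scaling. Its largest rises held under both. TFEB, which turns on lysosomal and autophagy genes, had 0.554 and 0.4999 normalised CPM in WT and 25.4 and 20.1 in KO 1# (5.42, adjusted p = 5.29e-14), and its relative MITF 0.268 and 0.0417 normalised CPM in WT and 9.58 and 10.8 in KO 1# (5.97, adjusted p = 4.69e-11). MAP1LC3B, the membrane marker of autophagosomes, had 40.9 and 41.3 normalised CPM in WT and 145 and 159 in KO 1# (1.89, adjusted p = 2.81e-13), while the initiating kinase ULK1 had 98.6 and 92.3 normalised CPM in WT and 98.1 and 88.7 in KO 1# (-0.03, adjusted p = 0.716; -0.74 (adjusted p = 4.76e-08) by totals). Of 24 tested clock genes 10 were higher and 7 lower (41.7% and 29.2%, median 0.17). By totals the median was -0.54, and with totals less the 20 most abundant genes -0.21. BHLHE40, a repressor of the clock, had 3.31 and 3.15 normalised CPM in WT and 226 and 216 in KO 1# (6.10, adjusted p = 1.87e-19), and NPAS2, a CLOCK paralogue, 0.784 and 0.583 normalised CPM in WT and 10.2 and 10.6 in KO 1# (3.92, adjusted p = 3.42e-11).

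Of 32 tested iron genes 13 were higher and 15 lower (40.6% and 46.9%, against 35.0% and 38.7% of all tested genes, median -0.18). SLC40A1, ferroportin, which exports iron, had 0.172 and 0.0208 normalised CPM in WT and 7.13 and 6.42 in KO 1# (6.04, adjusted p = 7.47e-10), TFR2, a transferrin receptor, 6.997 and 6.23 normalised CPM in WT and 0.191 and 0.0606 in KO 1# (-5.69, adjusted p = 2.04e-09), and CP, a ferroxidase, had 0 counts in KO 1# and was at least 9.59-fold lower. Of 22 tested prostaglandin genes 9 were higher and 10 lower (40.9% and 45.5%, median 0.22). By totals the median was -0.49, and without the 20 most abundant genes -0.16. TBXA2R, the thromboxane receptor, had 1.19 and 1.19 normalised CPM in WT and 44.8 and 35.9 in KO 1# (5.08, adjusted p = 4.06e-15), PTGFR was 62.3 times higher (95% exact interval of the ratio 20.8 to 306), and PTGES3, a co-chaperone also called p23, had 383 and 417 normalised CPM in WT and 118 and 129 in KO 1# (-1.70, adjusted p = 5.29e-13). Of 25 genes of RNA decay, N6-methyladenosine and editing 6 were higher and 13 lower (24% and 52%, median -0.26). The shares of all tested genes were 35.0% and 38.7%. IGF2BP3, a reader of methylated RNA, had 154 and 156 normalised CPM in WT and 51.6 and 52.1 in KO 1# (-1.58, adjusted p = 1.34e-12), RBM15, an adaptor of the methyltransferase, 36.4 and 34.04 normalised CPM in WT and 13.3 and 13.03 in KO 1# (-1.42, adjusted p = 7.97e-09), and ADARB1, an editing deaminase, 13.8 and 12.3 normalised CPM in WT and 40.7 and 36.7 in KO 1# (1.57, adjusted p = 3.54e-10).

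Calls differed by kind of gene and by chromosome. Protein-coding genes, 15191 of those tested, were higher in 38.7% and lower in 41.0%, while 1152 long intergenic RNAs were higher in 27.3% and lower in 36.7% and 460 processed pseudogenes in 14.6% and 27.2%. Genes of chromosome 19, singled out after the values were seen, were higher in 27.7% and lower in 46.5% of 1408 (median -0.41), and on the other autosomes and X between 30.5% and 39.6% were higher. Median expression also differed between called and uncalled genes: the average log2 CPM was 4.64 for higher, 3.11 for lower and 0.35 for uncalled genes.

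Some genes that KO 1# and KO 2# did not share, picked after their values were seen, stood out. COL7A1, the collagen of anchoring fibrils, had 12.8 and 12.7 normalised CPM in WT, against 115 and 94.7 in KO 1# and 599 and 553 in KO 2# (KO 2# over KO 1# 2.45, adjusted p = 1.6e-11). SOX2 had 198 and 189, 7.48 and 6.0002 and 2.35 and 1.59 (-1.78, adjusted p = 5.68e-06), so its remaining level was higher in KO 1#. Beside GOLGA4, the long coiled-coil proteins GOLGB1, GCC2 and AKAP9 of the Golgi and CEP290 of the centrosome were lower in KO 1# than in KO 2#. GOLGB1 had 80.5 and 81.5, 61.7 and 70.2 and 165 and 175 (1.36, adjusted p = 1.09e-08), and AKAP9 46.7 and 45.9, 16.5 and 26.001 and 52.7 and 57.4 (1.37, adjusted p = 1.21e-05). GCC2 had 49.1 and 50.6, 20.5 and 23.5 and 55.3 and 52.3 (1.29, adjusted p = 3.25e-07), and CEP290 16.3 and 18.3, 7.54 and 6.94 and 18.2 and 16.4 (1.26, adjusted p = 3.38e-05). The part of transcript length and composition, which differ between the genes called each way, was not tested.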
